A study of Saccharomyces cerevisiae with 12 samples.

Results

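Meiotic unannotated transcripts (MUTs) are non-coding RNAs of budding yeast, Saccharomyces cerevisiae, that are named for their appearance in cells undergoing meiosis. All 706 rows of type MUT in the deposited table of 12026 features were taken, with no choice by level or change, and they are described here in dividing cells. They ranged in length from 51 to 3153 nt with a median of 417 nt, and lay on all 16 nuclear chromosomes.

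RNA polymerase II transcribes much of the yeast genome outside genes, and many of the products are destroyed in the nucleus. The Nrd1-Nab3-Sen1 complex ends such transcripts early, TRAMP adds a short tail, and the nuclear exosome degrades them from the 3′ end with the help of the exonuclease Rrp6. MUTs were mapped in sporulating cells and are known as targets of Rrp6 in mitotic cells, whereas CUTs (cryptic unstable transcripts) are the classical Rrp6 targets of dividing cells. The anti-cancer drug 5-fluorouracil (FU) enters RNA as well as blocking thymidylate synthesis, and yeast without Rrp6 is known to be sensitive to it.

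Total RNA from mitotic cells, depleted of rRNA, was sequenced strand by strand in 12 libraries. They form 6 groups of 2 biological replicates: wild type (WT), WT with FU (WT+FU) and an RRP6 deletion mutant (rrp6), each 40 min and 100 min after synchronization. No group combines the deletion with FU. The labels do not state the strain background, ploidy, how many deletion clones were used, the dose of FU, when it was added or how cells were synchronized.

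The libraries held 20102931 to 27498217 reads over all features. RRP6 itself had a density of 1.18 ± 0.16 reads per nt in WT at 40 min and 0.0728 ± 0.0075 in rrp6, and 0.909 ± 0.059 against 0.0602 ± 0.013 at 100 min (mean ± SD, n = 2). The snoRNA share of reads differed between the 40 min replicates, with 11.7% and 20.2% in WT and 10.1% and 20.9% in WT+FU. Values across MUTs correlated between replicates with Pearson's r of 0.806 to 0.947 on the log2 scale. MUTs are not independent replicates.

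The first 100 bases of 8 MUTs on which the results turn are printed here from the R64 reference, 5′ to 3′ on the transcribed strand. Capitals mark GTAG and TGTAA, letters of Nrd1-type sites, searched on the transcribed strand only. No match shown overlaps another. Other forms of such sites were not searched, so a row without capitals is not shown to lack them. MUT729 (chr8:237993-238092, plus strand), MUT1463 (chr16:17050-17149, minus), MUT1070 (chr12:818359-818458, plus) and MUT271 (chr4:688614-688713, minus) had large changes in rrp6. MUT1565 (chr16:775907-776006, plus), MUT1220 (chr14:731333-731432, minus) and MUT143 (chr2:466720-466819, plus) were higher in WT+FU, and MUT771 (chr9:338626-338725, minus) holds both GTAG copies of the set.
MUT729: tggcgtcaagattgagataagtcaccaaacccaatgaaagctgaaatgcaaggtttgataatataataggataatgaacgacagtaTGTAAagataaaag
MUT1463: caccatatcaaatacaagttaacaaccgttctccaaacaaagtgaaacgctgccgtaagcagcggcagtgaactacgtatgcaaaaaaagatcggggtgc
MUT1565: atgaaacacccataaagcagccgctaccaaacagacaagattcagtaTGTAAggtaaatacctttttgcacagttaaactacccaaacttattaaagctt
MUT1220: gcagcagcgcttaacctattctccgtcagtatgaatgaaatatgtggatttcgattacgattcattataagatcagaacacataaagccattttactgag
MUT1070: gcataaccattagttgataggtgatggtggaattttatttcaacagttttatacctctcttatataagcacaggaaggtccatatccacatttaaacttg
MUT271: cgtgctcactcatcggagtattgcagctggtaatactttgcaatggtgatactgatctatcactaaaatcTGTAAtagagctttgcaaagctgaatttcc
MUT771: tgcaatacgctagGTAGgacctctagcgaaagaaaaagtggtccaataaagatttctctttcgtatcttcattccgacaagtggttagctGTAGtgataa
MUT143: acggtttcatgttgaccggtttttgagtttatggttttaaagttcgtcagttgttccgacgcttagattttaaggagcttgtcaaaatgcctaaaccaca

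Across the class, the first 100 bases (or the whole row where shorter) held GTAG in 23.1% of MUTs, 32.3% of CUTs and 17.9% of genes. TGTAA was there in 14.2% of MUTs, 16.9% of CUTs and 5.65% of genes. Gene rows span the coding sequence, from ATG to stop for 5747 of 5775 nuclear genes. Their first bases are therefore codons and not a transcript start, so the gene values are not a like-for-like reference. The median G+C content of MUTs was 36.1%, against 39.7% for these coding gene rows. The URS1 core GGCGGC, through which the repressor Ume6 holds early meiotic genes silent in dividing yeast, occurred on either strand within 300 bases before the start of 56 MUTs. That is 7.93% of MUTs, beside 4.43% of CUTs, 5.00% of mSUTs (a class named so in the table) and 5.25% of genes. For genes the 300 bases are those before the start codon. MUT143 is the one MUT printed above with such a match, GCCGCC on the printed strand 98 bases before its start. The letters are a description, not evidence of binding. Its upstream 300 bases (chr2:466420-466719, plus strand) carry the match in capitals.
MUT143 upstream: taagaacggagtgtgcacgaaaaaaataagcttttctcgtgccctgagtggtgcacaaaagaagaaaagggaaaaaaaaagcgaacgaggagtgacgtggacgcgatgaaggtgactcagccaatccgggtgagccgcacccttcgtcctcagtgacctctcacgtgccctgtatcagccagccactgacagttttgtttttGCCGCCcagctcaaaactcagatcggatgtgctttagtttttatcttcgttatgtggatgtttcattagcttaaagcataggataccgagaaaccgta

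By position, 336 of the 706 MUTs ran antisense to a gene over at least 1 nt, and 89 covered at least 50% of a gene from the other strand. On their own strand 83 MUTs shared bases with another row. Of these, 73 overlapped an XUT (a transcript sensitive to the exonuclease Xrn1), 9 a CUT, 6 a SUT (stable unannotated transcript) and 3 a gene, some more than 1 kind. Reads in such shared stretches cannot be assigned to 1 row. Every stretch of 50 bases was unique in the genome for 616 MUTs.

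MUTs were the lowest of the compared transcript classes in every group, and MUT RNA was most abundant in rrp6. The WT replicates gave MUTs 0.0205% and 0.0189% of all reads 40 min after synchronization, and 0.0134% and 0.0142% after 100 min. Cells treated with FU gave 0.0304% and 0.0357% at the early time, then 0.0247% and 0.0229%. The deletion mutant gave 0.114% and 0.110% early, then 0.0923% and 0.104% late. All rrp6 libraries lay above all WT+FU libraries, and those above the WT libraries of their own time. In bulk RNA, fewer cells with a transcript and less of it per cell cannot be told apart.

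The MUT share was 5.67-fold higher in rrp6 than in WT at 40 min and 7.12-fold higher at 100 min, while the CUT share was 10.9-fold higher at both times. With FU the MUT share was 1.68-fold and 1.73-fold that of WT. The share at 100 min was 0.700 times that at 40 min in WT, 0.720 times with FU and 0.878 times in rrp6. With 2 libraries a group, an exact two-sided permutation test cannot give a p below 0.333, so no test was made of these shares. On the median of ratios scale the summed MUT signal was 3.81-fold and 4.87-fold higher in rrp6 than in WT without overlap. With FU it was 1.29-fold and 1.36-fold that of WT, and the 40 min libraries then overlapped.

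**Figure D1:**
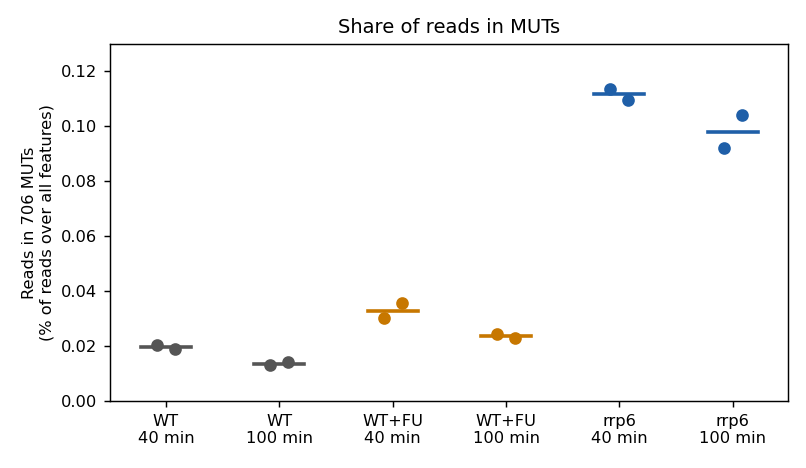
Share of reads that fall in the 706 MUTs, as a percentage of reads over all features, in each of the 12 libraries (points) with the group mean of 2 replicates (bars). The rrp6 libraries sit between 0.0923% and 0.114%, the WT+FU libraries between 0.0229% and 0.0357%, and the WT libraries between 0.0134% and 0.0205%.

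Per length, the median MUT had a density of 0.00472 ± 0.000407 reads per nt in WT at 40 min and 0.00301 ± 0.000102 at 100 min (mean ± SD of the library medians, n = 2). FU-treated cells had medians of 0.00888 ± 0.00246 and 0.00608 ± 0.000148, and the mutant had 0.0306 ± 0.00122 and 0.0260 ± 0.00286. At 40 min the median CUT went from 0.0279 in WT to 0.352 in rrp6, whereas the median gene stood at 0.360 and 0.505. In rrp6 the median MUT thus reached about the density of the median CUT in WT.

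**Figure D2:**
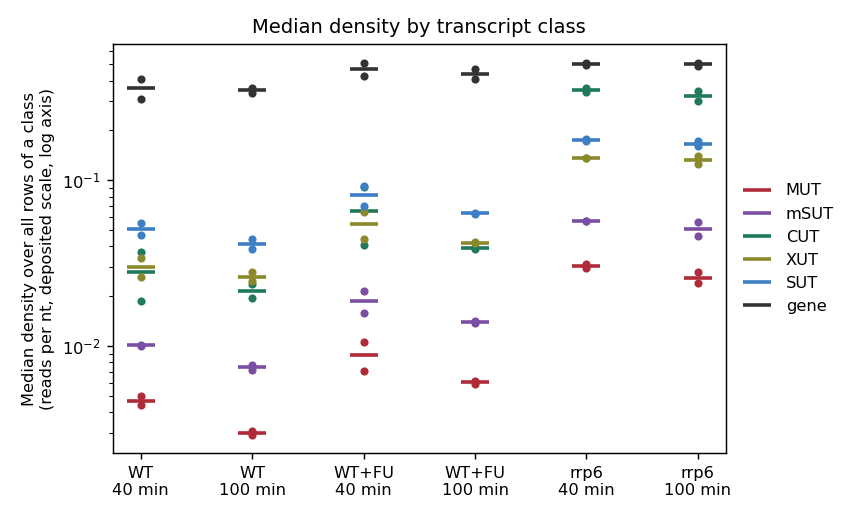
Median density over all rows of a class, in reads per nt on the deposited scale (log axis), for MUTs, mSUTs, CUTs, XUTs, SUTs and genes; points are libraries and bars the mean of 2 replicates. MUTs lie lowest in every group, at 0.00301 in WT at 100 min and 0.0306 in rrp6 at 40 min.

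These levels rest on few reads. The median MUT had 1 to 3 reads per WT library, 3 to 5 with FU and 14 to 19 in rrp6. At least 10 reads in both replicates were found for 93 MUTs in WT at 40 min and 52 at 100 min, for 175 and 127 with FU, and for 432 and 407 in rrp6. No read was found for 29 MUTs in any library. Of 101 MUTs with no read in the 4 WT libraries, 68 had reads in rrp6. The 10 MUTs with most reads held 13.2% of all MUT reads and the top 100 held 55.0%.

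The comparison of rrp6 with WT asks which MUTs are held down by Rrp6 in dividing cells. Most MUTs rose in rrp6, 429 of 706 at 40 min and 443 at 100 min, while 1 fell at each time. A change is called at a Benjamini-Hochberg adjusted p under 0.05 in limma, fitted and adjusted over all 11485 features with densities of at least 0.0120 in 2 libraries. This filter kept 529 MUTs and left 177 untested. Rises were called for 81.1% and 83.7% of tested MUTs, against 54.2% and 57.1% of all features tested at 40 and 100 min. Falls were called for 2.85% and 2.8% of all features, and either direction for 57% and 59.9%. Over all 706 MUTs the rises made up 60.8% and 62.7%.

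Of the 529 tested MUTs, 203 passed the filter through the rrp6 libraries, where they were high. Among the 180 that pass on the WT libraries alone, 78.3% rose at 40 min and 82.2% at 100 min. Rises made up 96.3% and 95.7% of tested CUTs, 76.6% and 84.8% of tested SUTs and 32.3% and 34.5% of tested genes. Median of ratios scaling was computed over genes and sets the typical gene equal between libraries. By construction it moved the median gene from 0.45 to -0.01 at 40 min and from 0.45 to 0 at 100 min. The median over all features tested on that scale was 0.48 and 0.61. Rises then made up 64.3% and 70.6% of tested MUTs, 36.2% and 41.3% of all features and 12.3% and 16.1% of genes. Falls then made up 0.390% and 0.195% of MUTs, 7.15% and 8.35% of all features and 13.3% and 15.6% of genes. The class differences were not tested.

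Both rrp6 libraries lay above both WT libraries for 574 of all 706 MUTs at 40 min and 581 at 100 min (81.3% and 82.3%). Over all 12026 features the same held for 69.6% and 77.2%. They lay below for 4 and 1 MUTs, and for 5.73% and 9.36% of all features. A change given without the word fold or ratio is on the log2(density + 0.0120) scale, unless another pseudocount or scaling is named. That scale understates changes of rows as low as these. Values given as fold or ratio are plain ratios of shares, summed signal or pooled reads, without a pseudocount. The median log2 change over all 706 MUTs was 1.13 and 1.17, beside 0.45 at both times for the median gene.

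**Figure D3:**
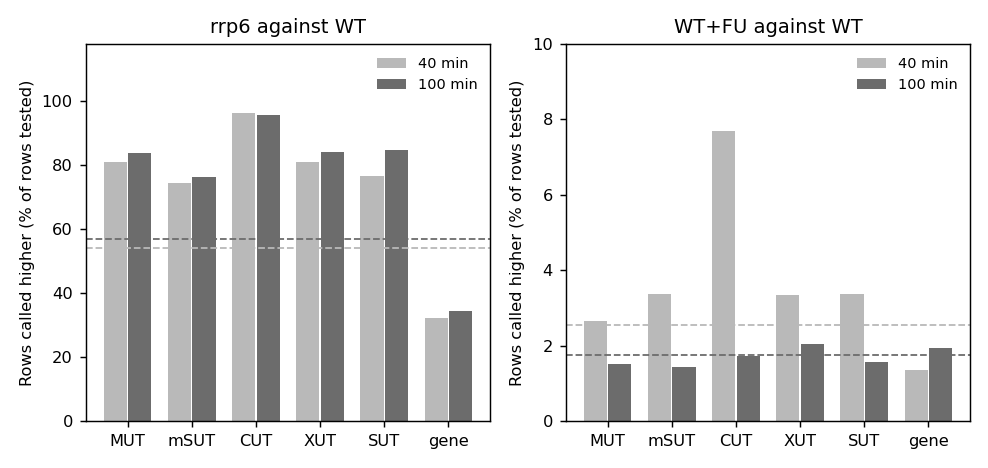
Rows called higher in rrp6 (left) and in WT+FU (right) against WT, as a percentage of the tested rows of each class, at 40 min (light bars) and 100 min (dark bars); dashed lines give the percentage over all features tested. MUTs reach 81.1% and 83.7% in rrp6, above the lines at 54.2% and 57.1%, and 2.65% and 1.51% with FU, near the lines at 2.54% and 1.74%.

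The rises were shared between times. At both times 394 MUTs rose, 35 were called at 40 min alone and 49 at 100 min alone. Changes at 40 and 100 min, which rest on separate libraries, had a Pearson's r of 0.830 over the 706 MUTs, given as a description. With a pseudocount 10 times larger and the same 529 MUTs tested, 421 and 417 rose and 1 fell at each time. The median MUT change minus the median gene change was then -0.06 and -0.08. With the filter raised 10 times as well, an alternative chosen after seeing the data, 132 MUTs were tested and 126 and 124 of them rose. This filter counts all libraries, so rows high in rrp6 alone pass it, and the selection itself favours rises. Over all 8723 features that passed, 4555 and 4696 rose and 314 and 313 fell.

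**Figure D4:**
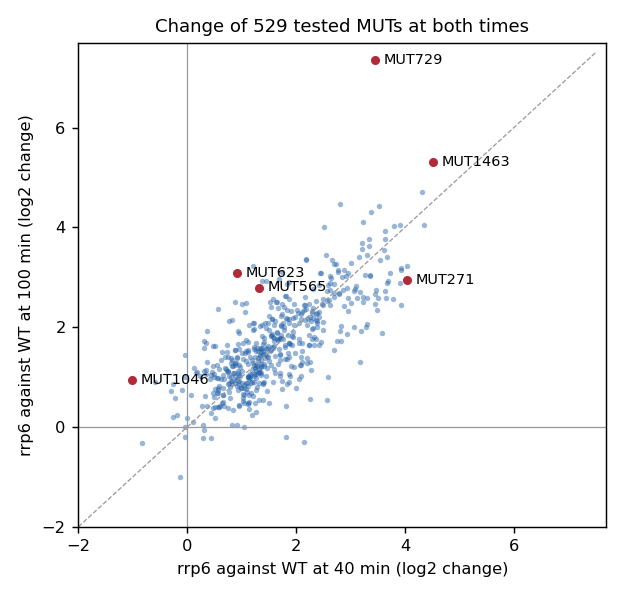
Log2 change in rrp6 against WT at 40 min (x axis) and 100 min (y axis) of the 529 tested MUTs, 1 point each, with 6 MUTs named in red and the dashed line marking equal change. Most points lie in the upper right, with MUT1463 at 4.51 and 5.31, and MUT1046 is below 0 at 40 min alone.

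MUT1463 (chr16:17013-17149, minus strand, 137 nt, no gene overlap) had the largest called rise at 40 min on the log2 scale, though not by read ratio. It held 2 and 2 reads in WT at 40 min, 2 and 1 at 100 min, 15 and 8 with FU at 40 min, 3 and 4 with FU at 100 min, 113 and 104 in rrp6 at 40 min, and 143 and 199 in rrp6 at 100 min. The rrp6 libraries stand far above all others, and the FU libraries at 40 min lie between. Its change in rrp6 was 4.51 ± 0.31 at 40 min (limma adjusted p = 1.93e-05) and 5.31 ± 0.31 at 100 min (9.01e-06). Pooled over replicates and scaled, the read ratio was 43.2 (95% counting interval 16.6 to 160.0) and 85.0 (28.8 to 414.0). Intervals on reads cover counting error and not the spread between replicates.

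MUT729 (chr8:237993-238113, plus strand, 121 nt) had the largest rise at 100 min on the log2 scale. It lies 299 nt past the end of PCL5, a cyclin gene for the kinase Pho85, on the same strand. Its reads were 12 and 11 in WT at 40 min, none in either WT library at 100 min, 47 and 39 with FU at 40 min, and 25 and 25 with FU at 100 min. The mutant held 249 and 128 at the early time, then 350 and 319. Every rrp6 library lay above every FU library, and every FU library above every WT library.

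With the zeros in WT set at a floor of 3 reads over the group, MUT729 was at least 166-fold higher in rrp6 than in WT at 100 min, and 13.1-fold higher (95% counting interval 8.57 to 20.9) at 40 min. PCL5 itself had a density of 4.81 ± 0.38 in WT and 6.56 ± 1.6 in rrp6 at 40 min, and 2.39 ± 0.1 and 10.03 ± 0.3 at 100 min (mean ± SD, n = 2). Its change in rrp6 was 0.43 ± 0.18 at 40 min (adjusted p = 0.0738) and 2.06 ± 0.18 at 100 min (4.03e-05). PCL5 thus moved in the same direction as the MUT past its end, and its part in the MUT's reads was not tested.

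Other large rises came from MUTs almost without reads in WT. MUT271 (chr4:688114-688713, minus strand) covers 487 nt of VBA4, a vacuolar transporter gene, from the other strand. It held 1 and 2 reads in WT at 40 min and 157 and 222 in rrp6, and 2 and 1 against 59 and 117 at 100 min. The groups are far apart, and the changes were 4.03 ± 0.31 and 2.94 ± 0.31 (adjusted p = 2.98e-05 and 8.6e-05). VBA4 had a density of 1.46 ± 0.063 in WT and 1.28 ± 0.082 in rrp6 at 40 min (-0.20 ± 0.15, adjusted p = 0.292).

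MUT1449 (689 nt, ending 123 nt before FAA1, a fatty acyl-CoA synthetase gene on the same strand) held 2 and 4 reads in WT and 148 and 121 in rrp6 at 40 min, and 1 and 3 against 248 and 226 at 100 min. FAA1 rose too (1.37 ± 0.37 and 1.34 ± 0.37, adjusted p = 0.0112 and 0.0116), and its part in the MUT's reads was not tested. MUT798 had no read in WT at 40 min and 43 and 47 in rrp6, at least 23.9-fold more. MUT428 likewise had none against 22 and 20, at least 11.2-fold more. MUT1260, with 25 and 20 reads in rrp6 and none in WT at 40 min, is uncertain, because most of its 50-base stretches occur elsewhere in the genome. Among the other MUTs named by the rule, MUT423, MUT726, MUT771, MUT1164 and MUT1559 rose in rrp6 at both times, by 2.44 to 4.47.

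The lone fall at each time rests on few reads. MUT1046 held 2 and 3 reads in WT at 40 min and 1 and none in rrp6 (-1.02 ± 0.30, adjusted p = 0.0168, lost under 3 of 21 alternatives). It rose at 100 min with no read in WT and 2 and 2 in rrp6, a call lost under 7 of 21. MUT357, which lies opposite SOK1, held 19 and 15 reads in WT at 100 min and 3 and 8 in rrp6 (-0.998 ± 0.30, adjusted p = 0.0174, lost under 4 of 22). Of all calls in rrp6, 32 of 430 at 40 min and 40 of 444 at 100 min had no library of the groups compared above 9 reads.

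The share that rose is given here by place and length, without a test of the differences. Percentages are of all rows, untested ones included, and 51.7% and 54.5% of all 12026 features rose at 40 and 100 min. Among the 333 MUTs that overlap no gene and share no strand, 187 rose at 40 min and 194 at 100 min (56.2% and 58.3%). Among 290 that run antisense to a gene without a shared strand, 170 and 175 rose (58.6% and 60.3%). Of the 83 that share a strand with another row, 72 and 74 rose (86.7% and 89.2%), and their reads may belong to that row. Rises at 40 min made up 57.8% of the shortest MUTs (up to 281 nt), 60.5% of the middle group and 64.0% of the longest (over 607 nt). By place, 239 of the 333, 210 of the 290 and 80 of the 83 were tested, so the sets differed in how many rows could be called. By length, 137 of 187, 141 of 171 and 151 of 171 tested MUTs rose at 40 min.

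MUTs free of gene overlap were also sorted by the gene before them, within 500 nt. Some of them share a strand with another non-coding row, and their reads may belong to that row. Of 115 that start divergently from a gene on the other strand, 77 rose at 40 min and 81 at 100 min, and their summed signal was 6.77-fold and 8.09-fold that of WT. Of 46 that follow a gene on their own strand, 25 and 22 rose, with summed ratios of 4.32 and 7.01. Of 206 with no gene in that window, 117 and 124 rose, with summed ratios of 4.65 and 6.46. The filter left 95 of the 115, 31 of the 46 and 147 of the 206 to be tested, so the counts are not comparable as shares of all rows. Of the 56 MUTs with a URS1 core upstream, 28 and 31 rose (50% and 55.4%), and of the 650 others 401 and 412 did (61.7% and 63.4%). These are shares of all rows, of which 39 and 490 were tested.

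Many MUTs that cover a gene from the other strand rose in rrp6. Of the 89 MUTs that cover at least 50% of a gene, 60 were tested, and 51 rose at 40 min and 56 at 100 min. Of the 84 sense genes tested, 30 and 34 rose (35.7% and 40.5%) and 3 and 4 fell, against 32.3% and 34.5% rises among all genes. With median of ratios scaling 10 and 15 of them rose and 12 and 10 fell, against 12.3% and 16.1% rises among all genes. Their median change was 0.45 and 0.53, beside 0.45 for all genes tested at both times.

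A few MUTs run opposite genes of the cell cycle or meiosis, and both that cover at least 50% of a listed gene rose in rrp6 at 100 min. MUT30 (chr1:66191-68031, plus strand) lies opposite 76.3% of CLN3, which codes for a G1 cyclin. Its reads were 3 and 3 in WT and 29 and 25 in rrp6 at 40 min, and none against 37 and 37 at 100 min, at least 18.4-fold more. CLN3 had a density of 1.17 ± 0.47 in WT and 1.38 ± 0.053 in rrp6 at 40 min, and 0.879 ± 0.28 and 0.903 ± 0.041 at 100 min, without a call.

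MUT730 (chr8:262145-262761, plus strand) covers all of SAE3, a meiotic recombination gene. It held none and 3 reads in WT at 40 min against 12 and 4 in rrp6, and none and 1 against 10 and 13 at 100 min (0.98 ± 0.25, adjusted p = 0.00789, lost under 1 of 19 alternatives). SAE3 rose at 100 min too (1.25 ± 0.22, adjusted p = 0.00115), from no read in WT to a density of 0.0166 ± 0.0014. One MUT, MUT453, starts past a snoRNA gene, SNR53, within 1000 nt on the same strand. It held 4 and no reads in WT and 49 and 101 in rrp6 at 40 min (2.93 ± 0.56, adjusted p = 0.00183), and 1 and 1 against 10 and 60 at 100 min (1.86 ± 0.56, adjusted p = 0.0169, lost under 4 of 22).

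The comparison of WT+FU with WT asks whether the drug moves MUTs in cells that have Rrp6. Few MUTs rose: 14 at 40 min and 8 at 100 min, and none fell by limma. With the replicate number as a block, 38 rose and 2 fell at 40 min, and 14 rose and none fell at 100 min. With that block, 860 and 469 of the 11485 features rose, and 64 and 67 fell. At 40 min the snoRNA shares given above differed by replicate number in WT and WT+FU alike. Same-numbered libraries of these groups deviated together over genes (Pearson's r = 0.869), and MUT rows were not part of that correlation. The 14 and 8 rises found without the block are 2.65% and 1.51% of tested MUTs. They are near the 2.54% and 1.74% of all features called higher, and 0.235% and 0.409% of all features fell. Unadjusted p-values under 0.05 were found for 106 higher and 5 lower MUTs at 40 min and for 98 and 5 at 100 min. By limma-voom on reads, 1 and 7 rose and none fell, and with median of ratios scaling none rose at 40 min and 5 at 100 min. Over all features, 63 and 148 rose by limma-voom (16 and 50 fell), and 1 and 56 with median of ratios scaling (4 and 63 fell). Leaving out FU replicate 1 at 40 min gave 63 calls at that time and leaving out FU replicate 2 gave none, and over all single libraries left out the counts ran from 0 to 63 and from 1 to 16.

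Both FU libraries were above both WT libraries for 248 of 706 MUTs at 40 min and 272 at 100 min (35.1% and 38.5%), against 41.9% and 53.8% of all features. They were below for 28 and 36 MUTs (3.97% and 5.10%), against 2.77% and 6.98% of all features. The median MUT was higher by 0.23 and 0.18 and the median gene by 0.37 and 0.29. MUTs therefore stood 0.14 and 0.11 below the median gene, but 0.09 and 0.12 above it with median of ratios scaling. The order also changed with the pseudocount on the deposited scale. With one 0.1 times as large, the median MUT was higher by 0.55 and 0.58 and the median gene by 0.40 and 0.32. With one 10 times larger, these were 0.03 and 0.02 against 0.26 and 0.20. The WT libraries are shared with the rrp6 comparison, so calls common to both are not independent: all 14 MUTs called at 40 min and 7 of the 8 at 100 min were also called in rrp6.

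MUT729 and MUT1565 were called with FU at both times. For MUT729 the reads given above make it 3.35-fold higher with FU at 40 min (95% counting interval 2.1 to 5.57) and at least 14.6-fold higher at 100 min (limma adjusted p = 0.0393 and 0.000798). The 100 min call held under every alternative tried, and that at 40 min was lost under 15 of 23. PCL5 rose with FU at 100 min (1.03 ± 0.18, adjusted p = 0.0263), but not with median of ratios scaling (0.71, 0.226).

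MUT1565 (chr16:775907-776091, plus strand, 185 nt) starts 724 nt from CLB5, an S-phase cyclin gene on the other strand. It held 7 and 6 reads in WT and 32 and 27 with FU at 40 min, and 4 and 4 against 20 and 13 at 100 min. In rrp6 it held 44 and 44 early, then 12 and 15. In scaled density the FU libraries lie above WT at both times, and at 100 min slightly above those of rrp6 as well (0.0858 and 0.061 against 0.0459 and 0.057). Changes with FU were 1.68 ± 0.23 and 1.38 ± 0.23 (adjusted p = 0.0249 and 0.0214), and 0.96 ± 0.23 in rrp6 at 100 min. Both FU calls were lost under 10 of 23 alternatives and that in rrp6 under 2.

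With FU at 40 min the largest called rise was that of MUT1070 (chr12:818359-818487, plus strand, 129 nt), which lies 597 nt past GAS2 on the same strand. GAS2 codes for a glucan-modifying enzyme of the spore wall. MUT1070 held 2 and 3 reads in WT, 21 and 29 with FU and 101 and 61 in rrp6 at 40 min, and 2 and 2, 6 and 2, and 45 and 37 at 100 min. At 40 min the 3 conditions do not overlap, whereas at 100 min WT and FU do. The change with FU was 2.50 ± 0.39 at 40 min (adjusted p = 0.0288), lost under 12 of 23 alternatives. GAS2 rose as well, by 1.49 ± 0.17 with FU and 2.99 ± 0.17 in rrp6 (adjusted p = 0.0202 and 1.08e-05). With median of ratios scaling the GAS2 change with FU was 1.12 (adjusted p = 0.106), and its part in the MUT's reads was not tested.

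At 100 min MUT1220 (chr14:730872-731432, minus strand, 561 nt), 185 nt past BIO5, a biotin uptake gene, went from 2 and 2 reads in WT to 33 and 26 with FU and 62 and 69 in rrp6. At 40 min it held 2 and 2, 7 and 14, and 52 and 38. The 3 conditions do not overlap at either time. The FU change at 100 min was 1.85 ± 0.26 (adjusted p = 0.00938), and it was lost under 4 of 22 alternatives. BIO5 rose in rrp6 (1.34 ± 0.30 and 1.60 ± 0.30), at 40 min not with median of ratios scaling (0.91, adjusted p = 0.0716), and was not called with FU (0.78 ± 0.30 and 0.49 ± 0.30), and its part in the MUT's reads was not tested.

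MUT143, with the URS1 core, ends 95 nt before the DNA repair gene RAD16 on the same strand. At 100 min it held 1 and 3 reads in WT against 18 and 17 with FU, while the mutant held 14 and 16. At 40 min the counts were 13 and 7, 7 and 10, and 22 and 22, so FU and WT overlapped there. Its FU change at 100 min was 1.49 ± 0.24 (adjusted p = 0.0162), lost under 4 of 22 alternatives. RAD16 rose in rrp6 by 1.88 ± 0.28 and 1.55 ± 0.28 and missed the threshold with FU (0.70 ± 0.28 and 1.02 ± 0.28, adjusted p = 0.147 and 0.0896).

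MUT541 (1721 nt, spanning all of PAU5, a seripauperin gene, from the other strand) held 9 and 14 reads in WT at 100 min, against 74 and 54 with FU, and the mutant held 50 and 67. The FU libraries overlap those of rrp6 and stand above WT (1.22 ± 0.21, adjusted p = 0.0214, lost under 6 of 22). The other FU calls named by the rule rest on still fewer reads. MUT952 went from none in WT to 2 and 3 reads at 40 min, and MUT877 from none to 4 and 5 at 100 min, calls lost under 16 of 23 and 6 of 22 alternatives. No WT or WT+FU library of the same time had more than 9 reads for 4 of the 14 MUTs called at 40 min and 3 of the 8 at 100 min.

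Set directly against each other, rrp6 held more MUT RNA than WT+FU. At 40 min 331 MUTs were higher and none lower in rrp6 by limma, and at 100 min 363 were higher and 1 lower. All features were called higher at 32.7% and 41.3%, and tested MUTs at 62.6% and 68.6%. Falls were called for 2.55% and 3.34% of all features. At 40 min, where none fell, 1 MUT was lower at an unadjusted p under 0.05 and none by limma-voom. For 289 MUTs rrp6 was higher at both times. Calls at 40 min were 214 and 201 without rrp6 replicate 1 or 2, and 235 at 100 min without rrp6 replicate 2.

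MUT177 (113 nt, no gene overlap) was the largest such rise at 40 min on the log2 scale. It had no read in any FU library against 30 and 21 in rrp6 at 40 min, at least 15.1-fold more, and 6 and 10 at 100 min. By pooled reads at 40 min MUT798 was at least 26.7-fold higher in rrp6 than with FU. MUT1245, which starts 55 nt from SLZ1, held 3 and 3 reads with FU and 62 and 99 in rrp6 at 40 min, a change of 3.31 ± 0.36 (adjusted p = 0.000427). At 100 min MUT1463 led with 4.73 ± 0.31 (adjusted p = 6.24e-05). The MUT that was lower, MUT1328, held 7 and 8 reads with FU at 100 min, 2 and 5 in rrp6 and none in WT (-0.50 ± 0.18, adjusted p = 0.0474), and this call was lost under 18 of 22 alternatives.

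The time comparisons ask which MUTs differ between 40 and 100 min, and few did. In WT 1 rose and 2 fell, with FU 1 rose and 14 fell, and in rrp6 3 rose and 8 fell. Of all features, rises were called for 1.31%, 1.38% and 1.08%, and falls for 1.06%, 2.64% and 0.784%. Both directions together made up 2.37%, 4.01% and 1.86%. With median of ratios scaling 2 rose and 8 fell in WT. With a pseudocount 10 times larger, 19 rose and 52 fell in rrp6, beside 456 and 455 of all 11485 features. Leaving out 1 library gave 1 to 11 calls in WT, 0 to 37 with FU and 0 to 16 in rrp6. Both 100 min libraries lay below both 40 min libraries for 190 of 706 MUTs in WT, 216 with FU and 253 in rrp6 (26.9%, 30.6% and 35.8%), near the 26.2%, 31.8% and 36.3% of all features. They lay above for 50, 78 and 92 MUTs, 7.08% of them in WT, against 15.2%, 13.8% and 27.8% of all features.

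MUT203 (chr3:56833-57329, plus strand, 497 nt) lies between ATG22 and SRO9, both on the other strand, and is rich in A and T with a G+C content of 22.7%. In WT it held 33 and 34 reads at 40 min, then 4 and 4, 32 and 53 against 9 and 3 with FU, and 28 and 41 against 8 and 7 in rrp6. In all 3 conditions the 100 min libraries are far below those of 40 min, and at 40 min the 3 conditions overlap. The fall was called in WT (-1.89 ± 0.32, adjusted p = 0.0193) and with FU (-1.89 ± 0.32, 0.0201), and missed the threshold in rrp6 (-1.42 ± 0.32, 0.0627). Each call was lost under 3 of 22 alternatives. In rrp6 against WT the read ratio was 0.820 (95% counting interval 0.578 to 1.17) at 40 min and 1.40 (0.556 to 3.81) at 100 min.

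MUT729 also fell with time in WT, to at least 7.25-fold fewer reads (adjusted p = 0.00147). In rrp6 its density was 1.11 ± 0.501 at 40 min and 1.95 ± 0.135 at 100 min (0.88 ± 0.29, adjusted p = 0.153). The difference between these time effects, the rrp6 by time interaction, was 3.90 ± 0.41 (adjusted p = 0.0112), the lone MUT among 9 features called. Of all features, 0.0174% were called higher and 0.0609% lower, 0.0784% in all. For FU by time no MUT was called by limma or limma-voom. Unadjusted p-values under 0.05 were found for 21 rises and 25 falls, and 0.00871% of all features were called higher and 0.0958% lower.

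With FU the rise with time was MUT541 (0.91 ± 0.21, adjusted p = 0.047), lost under 13 of 22 alternatives. In WT it was MUT1164 (1.45 ± 0.29, adjusted p = 0.0348), lost under 12 of 23. The 3 MUTs that rose with time in rrp6 all run opposite a gene. MUT623 (chr7:79202-79834, plus strand) lies opposite 50.5% of COG1, a Golgi transport gene, and shares its strand with an XUT. Its reads were 21 and 20 in WT, 29 and 26 with FU and 74 and 45 in rrp6 at 40 min, and 44 and 29, 77 and 49, and 509 and 470 at 100 min. The rrp6 libraries at 100 min stand apart from all others (2.85 ± 0.30 between times, adjusted p = 0.00515, lost under 3 of 23). COG1 had densities of 0.226 ± 0.0066 and 0.345 ± 0.027 at the 2 times in rrp6 (0.58 ± 0.30, adjusted p = 0.368).

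MUT565 covers 90.8% of GTS1, a gene that affects the timing of budding, and held 47 and 47 reads in rrp6 at 40 min and 129 and 145 at 100 min. MUT1433, opposite 91.9% of AIM41, held 7 and 8 and then 34 and 38. Both rose between times (1.24 ± 0.20 and 1.26 ± 0.20, adjusted p = 0.0201 and 0.0184, lost under 6 of 22 and 5 of 20 alternatives), while in WT each had at most 8 reads in a library. GTS1 and AIM41 changed by 0.08 ± 0.45 and 0.57 ± 0.47 with time in rrp6, without a call. The interaction for MUT623, MUT565 and MUT1433 missed the threshold (adjusted p = 0.151, 0.126 and 0.279).

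Among MUTs that fell with time with FU, MUT502 went from 6 and 8 reads to none, and MUT915, opposite part of PHD1, from 15 and 25 reads to 1 and 1 (-2.75 ± 0.45 and -2.02 ± 0.43, adjusted p = 0.0183 and 0.0383). These calls were lost under 5 and 15 of 23 alternatives. In rrp6 MUT1565 fell from 44 and 44 reads to 12 and 15 (-1.52 ± 0.23, adjusted p = 0.0184), and MUT177 from 30 and 21 to 6 and 10 (-1.49 ± 0.29, adjusted p = 0.0378), lost under 4 and 11 of 23.

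**Figure D5:**
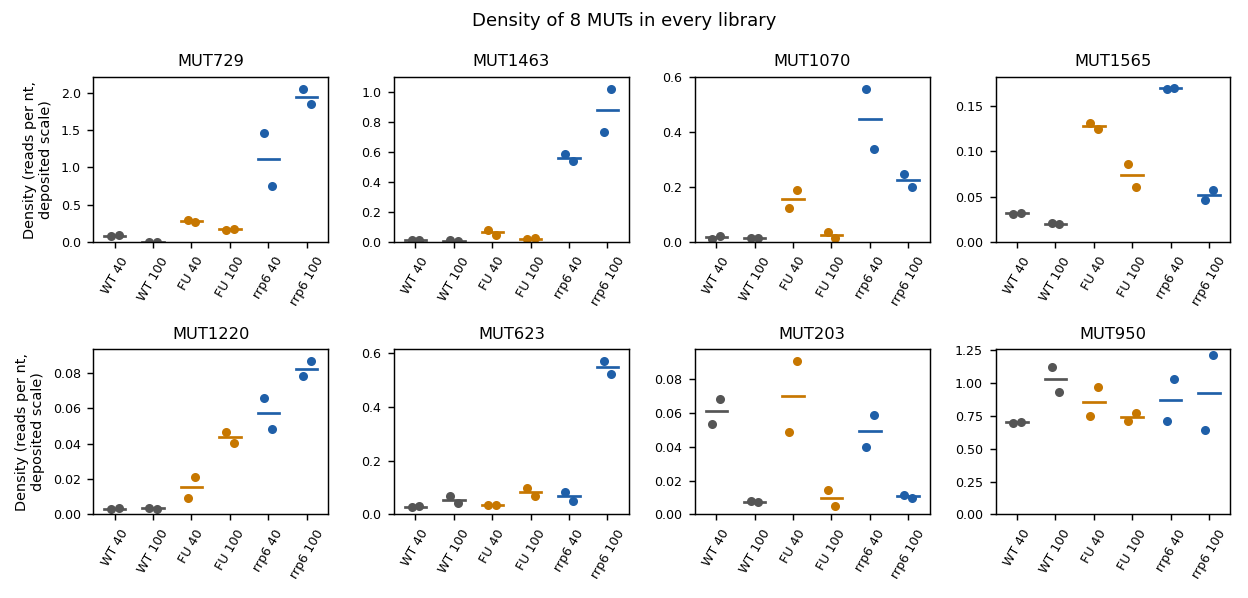
Density in reads per nt on the deposited scale of 8 MUTs in each of the 12 libraries (points; bars are means of 2 replicates), each panel with its own axis from 0. MUT729, MUT1463, MUT1070 and MUT1220 are highest in rrp6, MUT623 in rrp6 at 100 min alone, MUT203 is high at 40 min in all conditions, and MUT950 lies between 0.642 and 1.21 in all libraries.

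The most abundant MUTs per length were ranked by their mean density over all 12 libraries, those of rrp6 included, so the order partly follows the change in rrp6. MUT950, with the highest (0.855), is a row of 65 nt inside PHD1 on the same strand. It held 46 to 112 reads in each of the 12 libraries, and it was called in no comparison. Its reads are shared with PHD1, a transcription factor gene for filamentous growth, which was not called either. Next came MUT729 (0.600), MUT1026 (0.411), MUT1453 (0.411), MUT190 (0.402) and MUT387 (0.381). MUT387, past the heme synthesis gene HEM1 on the same strand, held 47 and 34 reads in WT and 288 and 229 in rrp6 at 40 min (2.27 ± 0.20, adjusted p = 4.26e-05), while HEM1 was not called.

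Genes of RNA surveillance and of meiotic control frame these changes. Of 24 surveillance genes (exosome, TRAMP, Nrd1-Nab3-Sen1 and their partners), 17 rose and 1 fell in rrp6 at 40 min and 13 rose and 1 fell at 100 min, the fall being RRP6 itself (-3.81 ± 0.21 and -3.69 ± 0.21, adjusted p = 9.1e-06 and 9.01e-06). All tested genes rose at 32.3% and 34.5%. With median of ratios scaling 5 surveillance genes rose and 1 fell at each time, against 12.3% and 16.1% rises among all genes. NRD1, NAB3 and SEN1 rose at both times on either scale, and the exosome nuclease gene DIS3 at 40 min alone with median of ratios. The list median was 0.73 at both times, beside 0.45 for all genes. With FU no surveillance gene was called.

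Of 16 genes that control entry into meiosis, 8 rose in rrp6 at 40 min and 6 at 100 min, with medians of 0.73 and 0.65, and with median of ratios scaling 3 at each time (18.8%), beside the gene shares above. UME6, whose product represses early meiotic genes, rose at 100 min (0.96 ± 0.21, adjusted p = 0.00353) and not by the test at 40 min (0.40 ± 0.21, 0.132), nor at 100 min with median of ratios (0.52, 0.0581). NDT80, the activator of middle meiotic genes, had densities of 0.0221 ± 0.0027 in WT and 0.0762 ± 0.022 in rrp6 at 40 min (1.35 ± 0.27, adjusted p = 0.00221), and 0.0247 ± 0.0057 and 0.0965 ± 0.00091 at 100 min (1.57 ± 0.27, 0.00089). IME2, a meiotic kinase gene, rose at both times.

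IME1, the master inducer of meiosis, stayed low in all groups, between 0.00654 ± 0.00034 in WT at 100 min and 0.0315 ± 0.0042 with FU at 100 min, without a call against WT. SPO11, which makes the meiotic DNA breaks, did not pass the filter and had group means from 0.00587 to 0.0154. Of 44 meiosis genes, 38 were tested, and 25 rose in rrp6 at 40 min and 23 at 100 min with medians of 0.97 and 1.14. With median of ratios 17 and 22 rose (44.7% and 57.9%) and none and 1 fell. With FU 1 rose at 40 min, SPO13 (0.99), and none at 100 min, and with median of ratios none rose at either time. Of 44 cell cycle genes, 19 and 23 rose in rrp6 at 40 and 100 min, beside 32.3% and 34.5% of all genes. With median of ratios 10 rose at each time (22.7%), beside 12.3% and 16.1% of all genes, and 4 fell at 100 min. None was called with FU at 40 min, and 2 rose and 2 fell with FU at 100 min.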

How the data were processed

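The authors deposited 1 table with a signal (a read density) per feature and library. TopHat is named per the submitters' processing notes, without a version; no annotation source or genome build is stated in the labels. Density times length divided by 1 factor per library gave whole reads for 100% of values (tolerance 0.001), so densities are reads per nt, scaled by the authors to 14370740 reads over genes in every library. Start and end equal R64 for 5738 of 5770 nuclear genes matched by locus tag, and R64 was used for sequences.

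A pseudocount of 0.0120173 (10th percentile of nonzero densities) was added before taking log2. The 11485 features at or above it in at least 2 libraries (5725 genes, 529 MUTs) were fitted with limma 3.58.1 (R 4.3.3), 1 mean per group over all 12 libraries, variance trend, two-sided moderated tests, Benjamini-Hochberg adjustment per comparison. Residual degrees of freedom are 6. The script was tested on simulated data. Changes were planted there only in features with more reads than the typical MUT, so that test does not cover calls on rows this low. Tables used Python 3.11.15, pandas 2.3.3 and SciPy 1.17.1. Reads are recovered, unscaled reads; ratios of pooled reads are scaled, with exact 95% counting intervals, and zero groups have a floor of 3 reads.

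MUTs named are the 6 largest called rises and falls without overlap in each comparison of conditions, the 4 largest in each time comparison and interaction, the 6 highest densities, those opposite at least 50% of a listed gene and those past a snoRNA. Members and lists were chosen with earlier results of these data known. Alternatives covered the pseudocount, filter, scaling, limma-voom, replicate block and each library left out.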

Additional observations from a re-analysis of the deposited data

Results flagged for a closer look

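MUT729 stood out because its change in rrp6 against WT differed between 40 and 100 min by a test of that difference. The difference was 3.90 ± 0.41 on the log2 scale (limma adjusted p = 0.0112), with 12 and 11 reads in WT at 40 min and none in WT at 100 min, against 249 and 128, and then 350 and 319, in rrp6. PCL5, the gene before it on the same strand, had an interaction of 1.64 with an adjusted p of 0.102. The MUT729 interaction had adjusted p-values from 0.000693 to 0.105 over 23 alternatives. It lost its call with a pseudocount 10 times larger (0.102, or 0.104 with the filter raised too), with limma-voom (0.0778) and without either library of WT or rrp6 at 100 min.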

How the results depend on the processing

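Of 170 called changes of 43 named MUTs, 114 kept their side of the threshold under every alternative in which the MUT was tested. Another 56 lost it under 1 or more, and 0 reversed. Alternatives in which a MUT was no longer tested were not counted as losses, so 19 to 23 alternatives applied to each change. MUT729 with FU at 100 min was kept throughout (highest adjusted p 0.0329). With a pseudocount 10 times larger, calls were 1 and 5 (FU against WT at 40 and 100 min), 1, 8 and 71 with time in WT, FU and rrp6, and 3 for rrp6 by time. The 71 were 19 rises and 52 falls, beside 456 rises and 455 falls over all 11485 features. For FU against WT all features gave 13 and 112 rises and 3 and 52 falls. With one 0.1 times as large they were 20 with FU at 100 min, 203 for rrp6 against FU at 40 min, 16 and 3 with time in WT and rrp6, and 1 for FU by time. Over all features, 361 rose and 55 fell with FU at 100 min. For rrp6 against FU at 40 min 2846 features rose and 248 fell. Moving the filter by the same factor, chosen after seeing the data, changed the number of MUTs tested. At 10 times, with 132 tested, calls were 126 and 124 (rrp6 against WT), 2 and 2 (FU against WT), 109 and 116 (rrp6 against FU), and 0, 3 and 22 with time. Rows high in rrp6 alone pass that filter, which favours rises in rrp6. Over all 8723 features, 4555 and 4696 rose in rrp6 against WT. The 22 in rrp6 were 5 rises and 17 falls, beside 350 rises and 319 falls over all features. At 0.1 times, with 663 tested, they were 22 and 21 with FU, 13 and 4 with time in WT and rrp6, and 1 for FU by time. With no filter on low values calls were 23 with FU at 40 min, 24 with time in rrp6 and 3 for rrp6 by time. Median of ratios scaling gave 0 and 5 with FU, 10 with time in WT and 8 with FU; limma-voom gave 1 with FU at 40 min, 3 with time in rrp6 and 0 for rrp6 by time. Causes were not tested.

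With the replicate number as a block, calls were 40 and 14 with FU, and 10 and 17 with time in WT and rrp6. Over genes, deviations of same-numbered samples correlated at 0.169 to 0.869 among the WT and WT+FU groups, at -0.0804 to 0.202 between these and rrp6 at 40 min, and at -0.356 to 0.07 between these and rrp6 at 100 min (0.319 between the rrp6 groups). The labels do not say what a replicate number shares.

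Leaving out 1 library gave 336 to 435 and 351 to 448 calls for rrp6 against WT, 0 to 63 and 1 to 16 for FU against WT, 201 to 329 and 235 to 382 for rrp6 against FU, 1 to 11, 0 to 37 and 0 to 16 with time in WT, FU and rrp6, and 0 to 1 for either interaction. The FU count at 40 min was 63 without FU replicate 1 at 40 min and 0 without FU replicate 2, WT replicate 1, either WT library at 100 min or any rrp6 library. Leaving out replicate 1, or replicate 2, of both WT and FU at 40 min, chosen after seeing the snoRNA shares, gave 44 and 10 for FU at 40 min, 63 and 62 at 100 min, 37 and 29 with time in WT, 93 and 29 in FU, 47 and 47 in rrp6, 9 and 1 for rrp6 by time and 2 and 0 for FU by time.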
